A study of Homo sapiens with 15 samples.

Results

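Integrin and tetraspanin genes were followed through a panel of lymphoid lines hybridised to Affymetrix U133 Plus 2.0 arrays. The members were taken by name from probe sets with a single gene symbol in the platform annotation: every ITGA, ITGB or TSPAN symbol with a number, the lettered alpha chains ITGAD, ITGAE, ITGAL, ITGAM, ITGAV and ITGAX, and the tetraspanins CD9, CD53, CD63, CD81, CD82 and CD151. This gave 52 genes of the 19775 measured, read by 125 of 54675 probe sets: 18 integrin alpha chains, 7 beta chains, 6 tetraspanins with CD names and 21 with TSPAN names. The 4 probe sets of ITGB6 carry a further gene symbol and were left out, as were 8 symbols of integrin-binding proteins, antisense or divergent transcripts. Where a gene had several probe sets, the brightest on average stood for it.

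The series held 15 arrays of 9 established cell lines. Classical Hodgkin lymphoma gave 6 lines on 10 arrays: L428, L1236, KM-H2 and HDLM2 with 2 arrays each, and L540 and L540Cy with 1 each. The non-Hodgkin arrays were 2 of Namalwa (Burkitt lymphoma), 2 of Reh (B acute lymphoblastic leukaemia) and 1 of SU-DHL-4 (B non-Hodgkin lymphoma). L540Cy is known from background as a subline of L540, so the 2 were averaged wherever lines were the replicates, which left 8 lines of origin, 5 Hodgkin and 3 non-Hodgkin. As background, the Hodgkin lines L428, L1236 and KM-H2 come from B cells, whereas HDLM2 and L540 come from T cells. Each line stands for a single tumour, and the labels name no treatment.

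Integrins are surface receptors made of an alpha and a beta chain, and the pairing decides the ligand: the chains of the beta 2 group bind cell adhesion molecules on leukocytes and endothelium, alpha 4 with beta 1 or beta 7 binds VCAM1, fibronectin or MADCAM1, alpha E with beta 7 binds E-cadherin, and alpha V pairs bind vitronectin and related matrix proteins. A beta chain needs an alpha chain to leave the endoplasmic reticulum, so a surface receptor requires both genes. Tetraspanins are small proteins that cross the membrane repeatedly and group integrins, proteases and immune receptors into membrane domains. CD53 is a pan-leukocyte tetraspanin, CD81 is found on most cells, and the TspanC8 tetraspanins (TSPAN5, TSPAN10, TSPAN14, TSPAN15, TSPAN17 and TSPAN33) escort the protease ADAM10.

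Values are log2 signals, on which a difference of 1 is a doubling of signal, and they are compared between lines for the same gene only. Over the 52 members the SD between duplicate arrays was 0.19 to 0.25 log2 in the 4 duplicated Hodgkin lines, against 0.47 in Namalwa and 0.51 in Reh. The array labelled Reh replicate 1 stood apart: 22 genes, ITGAL among them, were over 3 log2 higher in SU-DHL-4 than in any array but this one, and here they read a median of 4.0 log2 higher than in Reh replicate 2. Among the members ITGB7 (8.85 against 6.29), ITGAL (7.93 against 6.0) and ITGB2 (6.82 against 5.25) differed most upward between the Reh arrays, and all 3 were higher still in SU-DHL-4. CD79A and CD79B, the B cell receptor chains, stood at 11.14 to 12.72 in the non-Hodgkin lines and at 6.22 or less in the Hodgkin lines. Of the 6 measured B cell markers, PAX5 nevertheless read 10.81 in L1236, and EBF1 8.73 in KM-H2 and 8.83 in HDLM2. TNFRSF8, which encodes the Hodgkin marker CD30, stood at 9.61 to 12.70 in the Hodgkin lines and at 6.51 or less in the others. Of the 5 Hodgkin markers listed, all 5 exceeded 8 in L428, L1236, KM-H2 and HDLM2, 4 in L540Cy and 3 in L540. In each non-Hodgkin line 0 did. Of 7 T cell markers CD2 read 10.75 in HDLM2 and CD3D 8.60 in KM-H2, and the other 5 stayed under 8 in every line. None of 5 platelet or 5 endothelial markers exceeded 8 in any line, whereas the fibroblast marker DCN read 9.92 in SU-DHL-4 and the epithelial marker CDH1 10.14 in HDLM2. The part of these markers in the results was not tested.

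The first comparison asked whether the members separate Hodgkin from non-Hodgkin lines. ITGAV, the alpha chain of vitronectin receptors, showed the widest gap. Its arrays read 10.10 and 9.77 in L428, 8.42 and 8.30 in L1236, 9.21 and 9.20 in KM-H2, 8.64 and 8.85 in HDLM2, 10.57 in L540 and 11.24 in L540Cy. In the non-Hodgkin arrays it read 7.59 and 6.51 in Namalwa, 5.06 in SU-DHL-4 and 4.54 and 3.35 in Reh. Every Hodgkin array lay above every non-Hodgkin array. The difference was 4.08 ± 0.81 log2 (SE, 5 lines against 3), with means of 9.43 ± 1.01 (SD, n = 5) and 5.35 ± 1.57 (SD, n = 3), and it did not pass at an adjusted p of 0.0687 (limma, Benjamini-Hochberg over all genes). It passed in 8 of its 32 alternatives, where the adjusted p ran from 0.00182 to 0.206. The lowest came from a fit on arrays in place of line means, with the line as a random block. Such fits on the 12 numbered arrays passed too (0.0196 and 0.0293), as did L540 and L540Cy as 2 lines (0.0372). These fits count arrays or the subline, not lines of origin alone. Over line means ITGAV passed among genes over 6 (0.0465) or at or above the median (0.0344). It also passed in the fits without Namalwa replicate 1 (0.0442) and without Reh replicate 2 (0.0495). The latter leaves Reh to replicate 1, the array that stood apart. Without Reh replicate 1 instead, 0 members passed.

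CD63, a tetraspanin of lysosomes and exosomes, averaged 12.31 ± 0.28 over Hodgkin lines (SD, n = 5) and 11.34 ± 0.34 over the rest (SD, n = 3), which differ by 0.97 ± 0.21 log2 (SE, adjusted p = 0.0849). CD81 went the other way, at 11.30 ± 0.40 (SD, n = 5) against 12.26 ± 0.17 (SD, n = 3), or -0.96 ± 0.24 log2 (SE, adjusted p = 0.123). It passed in 1 alternative, without KM-H2, its highest Hodgkin line (-1.12 log2, adjusted p = 0.0218). CD151, a partner of laminin-binding integrins, differed by 1.07 ± 0.29 log2 (SE, adjusted p = 0.162), TSPAN31 by 1.53 ± 0.47 log2 (SE, adjusted p = 0.207) and TSPAN5 by 2.86 ± 0.83 log2 (SE, adjusted p = 0.181). The line means of the 2 classes did not overlap for 7 members, ITGAV, CD63, CD151, TSPAN17 and TSPAN31 on the higher side and CD81 and CD53 on the lower, as they did not for 10.7% of all genes. For CD53 the gap was 0.01 log2 wide, between HDLM2 (10.90) and SU-DHL-4 (10.91).

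No member passed in this comparison in either direction, where 0.759% of all genes were called higher and 0.612% lower. At an unadjusted p under 0.05 there were 10 members of 52, against 14.2% of all genes. A limma fit on all 15 arrays, in which arrays of a line share a random block, called 4, all higher (ITGAV, CD63, CD151 and TSPAN5), and 5.43% of all genes. The median difference was 0.03 log2 over the members and -0.02 over all genes. ITGA4, ITGAE, CD9, CD53 and TSPAN13 had differences of -2.03 to -2.40 log2 with standard errors of 1.28 to 2.11, and the difference of TSPAN8 (1.21 log2) became -0.11 without L428.

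**Figure D1:**
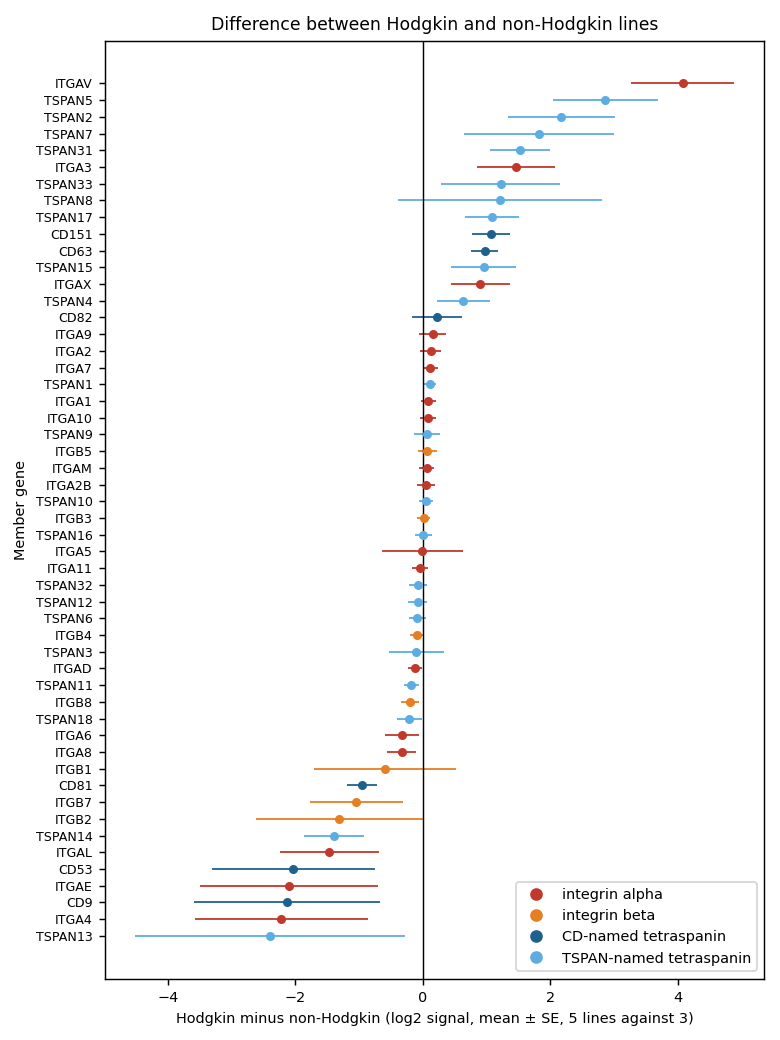
Difference between 5 Hodgkin and 3 non-Hodgkin lines for each of the 52 members, on the log2 scale with bars of 1 SE. ITGAV stood highest at 4.08, TSPAN13 lowest at -2.40, and none passed after adjustment.

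Differences between single lines were far clearer. An F test of the 9 line means, whose spread came from the 6 lines with duplicate arrays (6 residual degrees of freedom), called 30 of the 52 members, 57.7%, against 51.9% of all genes, so the share was near the background. The tests between lines measure the spread between duplicate arrays. A line with a single array borrows the spread of the duplicated ones. The members did range widely: 22 of 52 (42.3%) differed by at least 2 log2 between the highest and the lowest line, against 26.1% of all genes, and 13 by at least 4 log2. The 2 sets were not matched for brightness, and dim genes have compressed differences, so these shares are not strictly comparable. The shares of all genes ranging by at least 4 or by under 1 log2 are not given here. By group the F test called 8 of 18 alpha chains, 3 of 7 beta chains, 6 of 6 tetraspanins with CD names and 13 of 21 with TSPAN names. Without Reh replicate 1 it called 29, all among the 30, and TSPAN9 was lost. At the other end 21 members ranged by under 1 log2, and 9 of 52, against 32.0% of all genes, had no line mean over 6 on the probe set used. Other probe sets of ITGAM and ITGA9, both among the 9, did exceed 6.

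**Figure D2:**
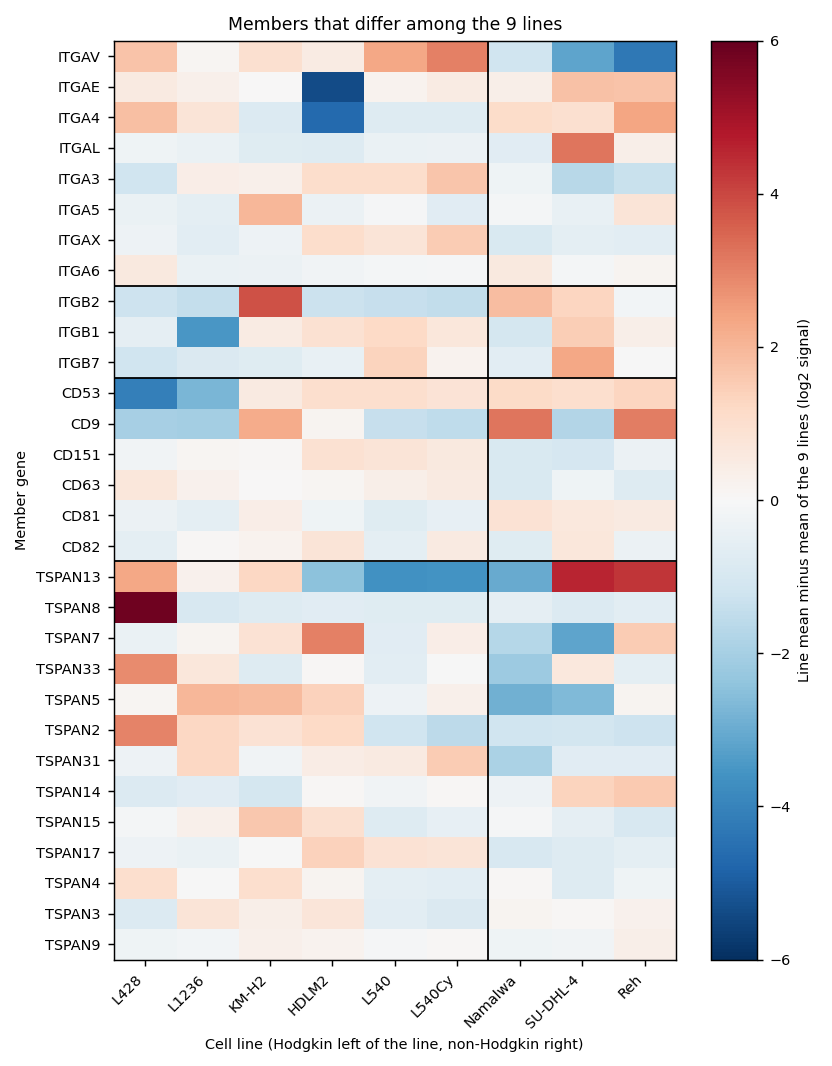
Line means of the 30 members that differed among lines, as the log2 difference from the gene's mean over the 9 lines (red higher, blue lower), with Hodgkin lines left of the vertical line. The darkest blue cells include ITGAE and ITGA4 in HDLM2, ITGAV in Reh and CD53 in L428, and the darkest red ones TSPAN8 in L428 and TSPAN13 in SU-DHL-4 and Reh.

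Among the alpha chains ITGA4 and ITGAE were both lowest in HDLM2. ITGA4, the alpha 4 chain of lymphocyte homing receptors, read 3.86 and 3.72 in HDLM2. It read 10.29 and 10.20 in L428, 9.19 and 9.25 in L1236, 7.48 and 7.83 in KM-H2, 7.71 in L540 and 7.70 in L540Cy. The non-Hodgkin arrays lay between 9.41 (SU-DHL-4) and 11.13 (Reh replicate 2). Against the mean of the other 7 lines HDLM2 differed by -5.45 ± 0.15 log2 (SE, adjusted p = 1.54e-08) and Reh by 2.61 ± 0.15 log2 (SE, adjusted p = 1.67e-06). KM-H2, L540 and L540Cy, with means of 7.66, 7.71 and 7.70, were next to each other in the order and differed by less than the KM-H2 duplicates. The other 3 probe sets of ITGA4 followed the same profile (r = 0.96 to 0.98 over the 15 arrays, which share lines).

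ITGAE, the chain of CD103, an integrin of epithelial T cells (1 probe set), read 4.24 and 4.45 in HDLM2 and from 9.37 to 11.65 in the other 13 arrays. HDLM2 differed from the other lines by -6.07 ± 0.18 log2 (SE, adjusted p = 1.65e-08). No other line stood below 9.72, so HDLM2 alone was apart. SU-DHL-4 (11.44) and Reh (11.43) were the highest lines, 2.04 and 2.03 log2 above the mean of the others, a mean that includes the low HDLM2. The promoters of these 2 genes are shown because both were low in the same line. They are the 250 bases before the annotated start in RefSeq (GRCh38.p14), with CG dinucleotides, the sites of DNA methylation, in capitals. That of ITGA4 (chr2:181457136-181457385, plus strand) holds 25 CG and that of ITGAE (chr17:3801189-3801438, minus strand) 6.
ITGA4: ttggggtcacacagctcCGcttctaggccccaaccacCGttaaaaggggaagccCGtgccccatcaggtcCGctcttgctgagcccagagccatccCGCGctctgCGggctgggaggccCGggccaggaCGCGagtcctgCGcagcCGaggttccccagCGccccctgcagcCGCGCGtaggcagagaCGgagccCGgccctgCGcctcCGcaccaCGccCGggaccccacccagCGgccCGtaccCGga
ITGAE: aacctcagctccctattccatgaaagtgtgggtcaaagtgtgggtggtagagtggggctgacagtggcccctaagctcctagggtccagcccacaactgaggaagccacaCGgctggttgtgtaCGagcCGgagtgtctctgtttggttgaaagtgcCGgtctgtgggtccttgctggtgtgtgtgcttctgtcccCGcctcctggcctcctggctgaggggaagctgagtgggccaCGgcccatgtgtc
The median over all 35116 listed starts was 11 CG in this window, so ITGA4 lay above and ITGAE below it. Methylation was not measured here.

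ITGAL, the alpha chain of LFA-1, was apart in SU-DHL-4, at 9.85 against 5.75 to 6.54 in the Hodgkin arrays, 5.98 and 5.96 in Namalwa and 6.0 in Reh replicate 2. Reh replicate 1 read 7.93. SU-DHL-4 was 3.63 ± 0.48 log2 above the other lines (SE, adjusted p = 0.000677), and 3.76 log2 without Reh replicate 1. ITGAX, the alpha chain of CD11c, read 7.69 and 7.13 in HDLM2, 7.12 in L540 and 7.90 in L540Cy, and 5.22 to 6.15 in the remaining arrays. HDLM2 and L540 with its subline were above the mean of the others by 1.37 ± 0.17 and 1.48 ± 0.17 log2 (SE, adjusted p = 0.000204 and 0.000142). With the mean of both probe sets of ITGAX these differences were 0.65 and 0.81 log2.

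ITGA3, a laminin-binding chain, was highest in L540Cy (8.38), followed by L540 (7.74) and HDLM2 (7.73), and lowest in SU-DHL-4 (5.06), Reh (5.34) and L428 (5.49). L428 was thus a Hodgkin line within the non-Hodgkin range. L540 with its subline was 1.75 ± 0.19 log2 above the other lines (SE, adjusted p = 0.000101). ITGA5, the fibronectin receptor chain, read 9.30 and 9.09 in KM-H2 and 6.52 to 7.13 in the other Hodgkin arrays, and KM-H2 was 2.21 ± 0.18 log2 above the other lines (SE, adjusted p = 1.43e-05). Reh was next at 7.60 and 8.34. ITGA6, another laminin-binding chain, passed the F test (adjusted p = 0.017) with a range of 1.01 log2 and no line over 5.15. The remaining 10 alpha chains did not pass: ITGA1, ITGA2, ITGA2B, ITGA7, ITGA8, ITGA9, ITGA10, ITGA11, ITGAD and ITGAM, with ranges of 0.41 to 1.33 log2 between lines. ITGA2B (platelets) stood at 6.45 or less in every line. ITGAM (myeloid cells), which pairs with ITGB2, stood at 5.97 or less on its brighter probe set, but its second probe set read 7.60 in HDLM2, 7.52 in KM-H2 and less elsewhere.

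Of the beta chains ITGB2 and ITGB1 moved most. ITGB2, the common chain of the leukocyte integrins, read 10.13 and 9.90 in KM-H2 and 4.65 to 5.11 in the other 8 Hodgkin arrays. The non-Hodgkin arrays lay in between, at 8.40 and 7.68 in Namalwa, 7.48 in SU-DHL-4, 6.82 in Reh replicate 1 and 5.25 in Reh replicate 2. KM-H2 was 4.18 ± 0.33 log2 above the other lines (SE, adjusted p = 9.33e-06), and 2.66 log2 with the mean of its 3 probe sets. Beside this, CD14, a monocyte marker, read 7.96 in KM-H2 and 5.28 or less in the other lines, and CSF1R 8.25 (8.15 in L540, 8.53 in L540Cy and 6.89 or less elsewhere), while LYZ and MPO were at 3.98 and 4.46 there. The mean of the 4 measured monocyte markers was 6.16 in KM-H2 and 4.92 to 5.44 in the other lines. Their part in the result was not tested.

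ITGB1, the beta 1 chain of matrix receptors, was lowest in L1236, at 7.33 and 7.63, against 9.64 to 12.45 in the other arrays. L1236 differed from the other lines by -3.87 ± 0.25 log2 (SE, adjusted p = 3.4e-06). The 2 next brightest of its 7 probe sets had r = 0.99 with it. Averaged over its 7 probe sets, 4 of which lay under 4, the difference was -1.64 log2. ITGB7, the partner of alpha 4 and alpha E, was highest in SU-DHL-4 (9.94) and L540 (8.95), and 6.25 to 7.84 in the other arrays outside Reh. SU-DHL-4 was 2.77 ± 0.64 log2 above the other lines (SE, adjusted p = 0.0139) and 2.96 log2 without Reh replicate 1. On the probe sets used, ITGB3, ITGB4, ITGB5 and ITGB8 did not pass the F test and ranged by 0.34 to 0.57 log2.

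**Figure D3:**
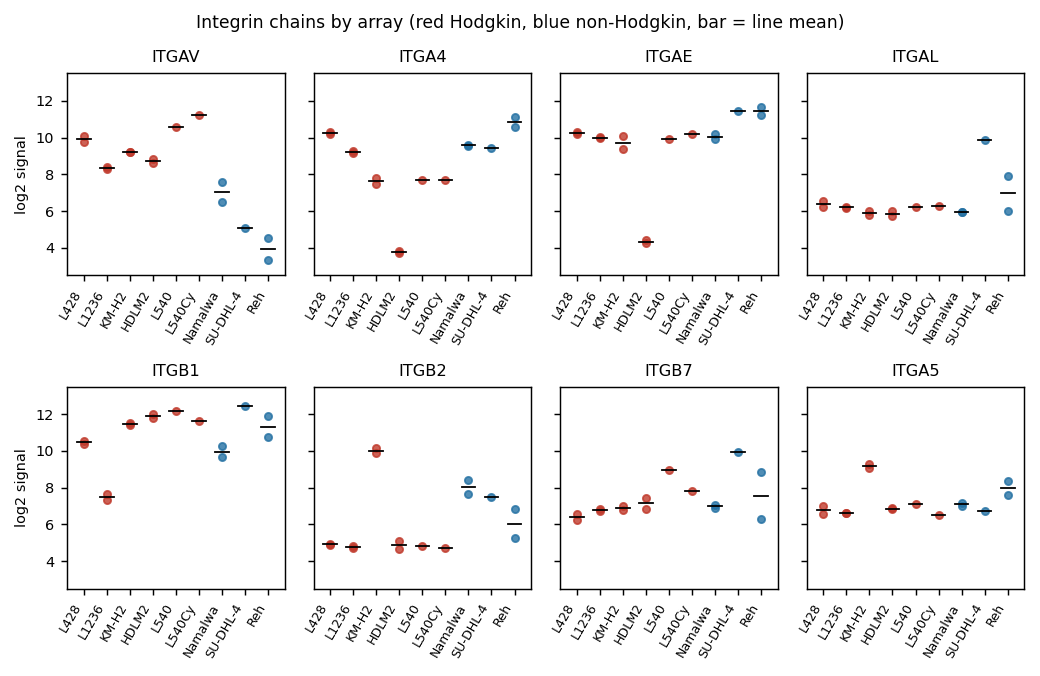
Log2 signal of 8 integrin chains in each array (points) with the line mean (bar), Hodgkin lines in red and non-Hodgkin lines in blue. ITGA4 and ITGAE are low in HDLM2 alone, ITGB1 in L1236, and ITGB2 is highest in KM-H2.

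On the probe sets used, partner chains that both passed the F test did not follow each other closely from line to line. ITGAL was highest in SU-DHL-4 and ITGB2 in KM-H2, where ITGAL read 5.81 and 5.98. In SU-DHL-4 ITGB2 stood at 7.48. The second probe set of ITGAM stood at 7.52 in KM-H2 and at 7.60 in HDLM2, where ITGB2 stood at 4.88. ITGAX was highest in L540Cy and HDLM2, where ITGB2 stood at 4.72 and 4.88. In HDLM2, low in ITGA4 and ITGAE, ITGB1 stood at 11.91 and ITGB7 at 7.15. In L1236, low in ITGB1, ITGA4 stood at 9.22. Over the 8 lines of origin r was 0.13 for ITGAL with ITGB2, -0.46 for ITGAX with ITGB2, -0.32 for ITGA4 with ITGB1, 0.05 for ITGA4 with ITGB7 and 0.31 for ITGAE with ITGB7. For the other integrin pairs compared r ran from -0.45 (ITGAM with ITGB2) to 0.35 (ITGAV with ITGB5). ITGAM, ITGB3, ITGB4, ITGB5 and ITGB8 did not pass the F test on these probe sets. With a chain that hardly varied, r cannot show whether partners follow each other. The r of ITGAM is that of its brighter probe set, which ranged by 0.46 log2. ITGAE and ITGB7 were both highest in SU-DHL-4, though ITGAE was nearly the same in Reh. ITGAV, which pairs with beta 1 and also with beta 3, beta 5 and beta 8, was highest in L540 with its subline. ITGB1 was also high there (12.16 and 11.64). A dim probe set of ITGB3 read 5.25 in L540 and 5.85 in L540Cy, against 4.13 to 4.54 in the other arrays. The other probe sets of ITGB3 ranged by 0.34 to 0.72 log2 between lines.

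The tetraspanins with CD names all passed the F test, and CD53 and CD9 ranged furthest. CD53 read 6.04 and 5.59 in L428, 7.36 and 6.93 in L1236, and 10.38 to 11.62 in the other 11 arrays. L428 differed from the other lines by -4.55 ± 0.23 log2 (SE, adjusted p = 5.56e-07) and L1236 by -3.03 ± 0.23 log2 (SE, adjusted p = 8.83e-06). KM-H2, the remaining B cell derived Hodgkin line, stood at 10.46 and was not low. With the mean of its 3 probe sets the differences were -1.95 and -1.64 log2. The higher calls of CD53 in L540 (1.19 log2) and Namalwa (1.47 log2) then no longer passed (adjusted p = 0.146 and 0.0516). Those calls, and the ones in HDLM2, SU-DHL-4 and Reh, were against a mean that includes the low L428 and L1236. Outside these 2 lines the line means of CD53 lay between 10.46 and 11.20. The start shown, with the more CG of its 2 in RefSeq (chr1:110870960-110871209, plus strand) is printed because the gene was low in 2 lines and bright in the rest. It has 3 CG.
CD53: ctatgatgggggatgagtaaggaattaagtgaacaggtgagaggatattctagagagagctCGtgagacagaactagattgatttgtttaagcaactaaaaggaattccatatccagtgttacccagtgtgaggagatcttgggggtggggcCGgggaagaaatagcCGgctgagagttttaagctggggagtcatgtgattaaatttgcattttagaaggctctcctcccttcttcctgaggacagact

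CD9, which associates with beta 1 integrins and with CD81, was bright in KM-H2 (mean 8.92), Namalwa (10.23 and 9.61) and Reh (9.09 and 10.39). HDLM2 was intermediate at 6.37 and 7.31, and L428, L1236, L540, L540Cy and SU-DHL-4 lay between 4.58 and 5.30. Both classes thus held high and low lines. Namalwa, Reh and KM-H2 were above the mean of the other lines by 3.48, 3.28 and 2.35 log2 (SE 0.32 each, adjusted p = 3.3e-05, 4.68e-05 and 0.000349). The 2 other probe sets of CD9 averaged 5.15 and 3.92 and did not follow it (r = 0.12 and 0.20), and with the mean of all 3 the differences were 1.24, 1.13 and 0.72 log2.

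CD63, CD81, CD82 and CD151 read 6.98 or more in every array, with ranges of 1.48 to 1.92 log2 between lines. CD82, a suppressor of cell motility, was highest in HDLM2 (9.53) and SU-DHL-4 (9.46) and lowest in Namalwa (8.05), and did not follow the classes (difference 0.22 log2, adjusted p = 0.825). CD151 was highest in HDLM2 (8.93 and 8.88) and L540 (8.77), and lowest in SU-DHL-4 (6.98) and Namalwa (7.09 and 7.11). HDLM2 was 1.13 ± 0.14 log2 (SE, adjusted p = 0.000178) above the other lines for CD151. CD81 was highest in Namalwa, at 12.32 and 12.56.

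Among tetraspanins with TSPAN names TSPAN13 and TSPAN8 had the widest ranges between lines, 8.22 and 6.80 log2. TSPAN8, known from carcinoma cell motility, read 10.91 and 11.22 in L428 and 4.16 to 4.77 in all other arrays. L428 was 6.59 ± 0.13 log2 above the other lines (SE, adjusted p = 2.18e-09). The calls of TSPAN8 as lower in L1236 (-1.18 log2) and SU-DHL-4 (-1.06 log2) arise because the mean of the other lines then includes L428. TSPAN13 read 12.57 in SU-DHL-4, 12.27 and 12.31 in Reh, 10.18 and 10.44 in L428, 8.91 and 9.58 in KM-H2 and 8.42 and 8.07 in L1236. It was low in HDLM2 (5.64 and 5.48), Namalwa (5.67 and 4.30), L540 (4.35) and L540Cy (4.42). All 3 B cell derived Hodgkin lines lay above all T cell derived ones, but Namalwa, a B cell line, was as low as the latter. SU-DHL-4 and Reh were 4.71 ± 0.40 and 4.39 ± 0.29 log2 above the other lines, and L540 with its subline differed from them by -4.64 ± 0.29 log2 (SE, adjusted p = 4.03e-05, 3.84e-06 and 2.37e-06). The promoters of both are shown because both ranged widely with unlike CG content: 1 CG for a start of TSPAN8, which has 2 listed (chr12:71158000-71158249, minus strand) and 22 for TSPAN13 (chr7:16753505-16753754, plus strand).
TSPAN8: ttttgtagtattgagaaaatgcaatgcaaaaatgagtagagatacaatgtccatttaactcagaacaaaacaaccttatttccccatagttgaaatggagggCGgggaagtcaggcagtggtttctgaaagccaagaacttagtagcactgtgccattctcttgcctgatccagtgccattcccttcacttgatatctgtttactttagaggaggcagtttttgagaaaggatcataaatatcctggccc
TSPAN13: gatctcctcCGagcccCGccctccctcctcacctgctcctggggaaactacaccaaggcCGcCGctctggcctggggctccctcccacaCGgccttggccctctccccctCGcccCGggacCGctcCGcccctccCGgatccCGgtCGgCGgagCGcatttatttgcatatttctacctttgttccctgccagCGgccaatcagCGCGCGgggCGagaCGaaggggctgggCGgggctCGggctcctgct

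**Figure D4:**
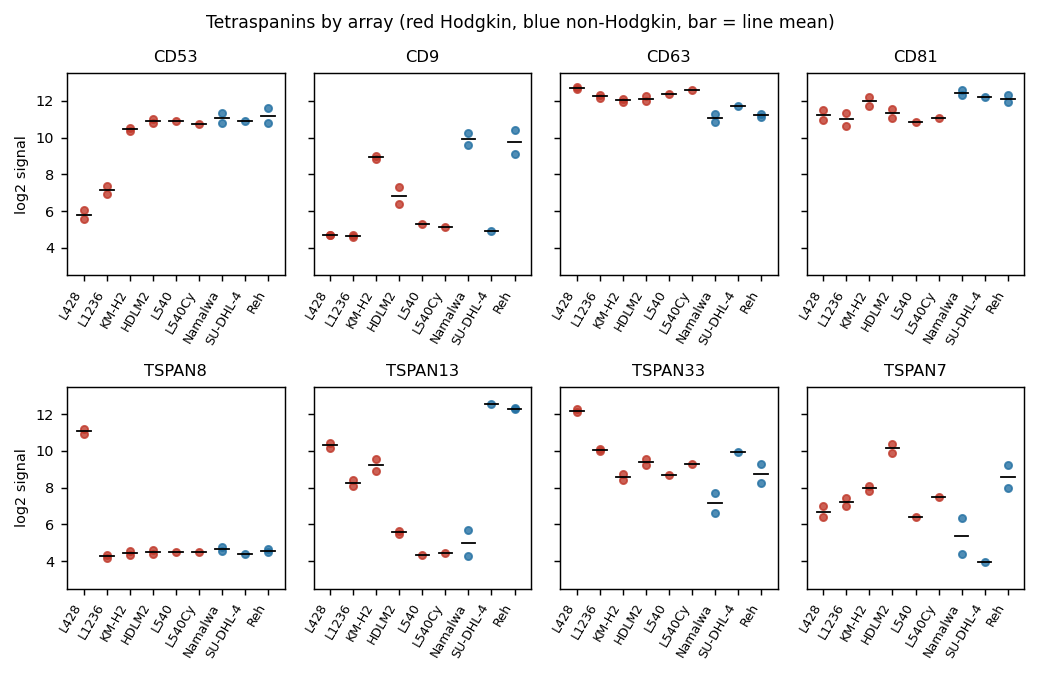
Log2 signal of 8 tetraspanins in each array (points) with the line mean (bar), Hodgkin lines in red and non-Hodgkin lines in blue. CD53 is low in L428 and L1236, TSPAN8 is high in L428 alone, and CD63 and CD81 vary little beside the others.

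Of the 6 TspanC8 tetraspanins all but TSPAN10 passed the F test, and they followed different lines. TSPAN33, the member known from activated B cells, read 12.29 and 12.09 in L428, 9.99 and 10.11 in L1236 and 6.60 and 7.71 in Namalwa. The other arrays lay between 8.24 and 9.96. L428 was 3.20 ± 0.29 log2 above the other lines (SE, adjusted p = 3.64e-05) and Namalwa differed by -2.55 ± 0.29 log2 (SE, adjusted p = 0.000155). TSPAN5 was high in L1236 (9.66), KM-H2 (9.56) and HDLM2 (9.04) and low in Namalwa (4.80) and SU-DHL-4 (5.01), while Reh, at 7.85, lay between L540 (7.38) and L540Cy (8.0). TSPAN14 was highest in Reh (9.14) and SU-DHL-4 (8.89) and lowest in KM-H2 (6.50), whose fall lost its call without KM-H2 replicate 1 (adjusted p = 0.0526). TSPAN15 was highest in KM-H2 (8.05), 1.78 ± 0.15 log2 above the other lines (SE, adjusted p = 1.78e-05). TSPAN17 was highest in HDLM2 (10.25 and 10.50), 1.71 ± 0.13 log2 above them (SE, adjusted p = 1.03e-05). TSPAN10 stayed between 5.74 and 6.09. ADAM10 itself ranged from 10.37 to 11.67 and had r = -0.16 with TSPAN33 over the 8 lines of origin.

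TSPAN7, known from T cell leukaemia, was highest in HDLM2 (9.89 and 10.37), followed by Reh (7.96 and 9.24) and KM-H2 (7.83 and 8.12), and read 3.95 in SU-DHL-4. HDLM2 was 3.45 ± 0.45 log2 above the other lines (SE, adjusted p = 0.000262). Its fall in Namalwa rested on replicate 2 (-1.98 log2, and -1.0 with adjusted p = 0.149 without it). TSPAN2 was graded within the Hodgkin lines: 8.08 and 7.98 in L428, 5.75 to 6.38 in L1236, KM-H2 and HDLM2, and 3.87 and 3.48 in L540 and L540Cy, beside 3.57 to 4.15 in the non-Hodgkin arrays. L428 was 3.22 ± 0.16 log2 above the other lines (SE, adjusted p = 5.16e-07; 1.70 log2 with the mean of 3 probe sets). TSPAN31 was highest in L540Cy (10.83) and L1236 (10.64 and 10.46) and lowest in Namalwa (8.16 and 6.64). The rise of TSPAN31 in L1236 lost its call without L1236 replicate 1 (adjusted p = 0.0718), and its fall in Namalwa was -2.03 log2, or -1.28 without Namalwa replicate 2. TSPAN3 was lowest in L540Cy (10.13) and L428 (10.22), and TSPAN4 highest in L428 (9.01) and KM-H2 (9.01). TSPAN9 passed the F test at an adjusted p of 0.044 with a range of 0.64 log2. TSPAN1, TSPAN6, TSPAN11, TSPAN12, TSPAN16, TSPAN18 and TSPAN32 did not pass and ranged by 0.36 to 0.80 log2.

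Each line can also be described by its members. Counts are of members past an adjusted p of 0.05 with a difference of at least 1 log2 from the mean of the other 7 lines, beside the share of all genes called the same way. The 8 contrasts share arrays and are not independent. The mean of the other 7 lines also takes in any line that is extreme in a member. CD53 and ITGB1 were thus called higher in several lines against a mean with the low L428 or L1236. ITGB2 was called lower in L428, L1236, HDLM2 and L540 against a mean with the high KM-H2. In L428, 7 members were higher (6.16% of all genes), led by TSPAN8, TSPAN2 and TSPAN33, and 5 lower (4.57%), led by CD53 and CD9. The lower count was 3 without L428 replicate 2 and the fall of ITGB2 there (-1.65 log2) lost its call without either L428 array (adjusted p = 0.0537 and 0.0653). In L1236, 3 were higher (7.13%), led by TSPAN5 (2.27 log2), and 5 lower (3.98%), led by ITGB1 and CD53. In KM-H2, 7 were higher (7.8%), led by ITGB2, CD9 and ITGA5, and 2 lower (4.93%), ITGA4 and TSPAN14. That lower count was 1 without KM-H2 replicate 1 and 4 without Namalwa replicate 1.

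HDLM2 had the most higher members, 10 (7.4%), led by TSPAN7 and TSPAN17, and 4 lower (5.47%): ITGAE, ITGA4, TSPAN13 and ITGB2. With single arrays left out, the higher count ran from 8 to 11 in HDLM2 and from 5 to 9 in KM-H2. ITGB2 was as low in L428 (4.92), L1236 (4.77) and L540 with its subline (4.76) as in HDLM2 (4.88), so its fall was not particular to HDLM2. That fall was -1.70 log2, and it lost its call without HDLM2 replicate 2 (-1.46 log2). L540 with its subline had 7 higher (5.64%), led by ITGAV (3.43 ± 0.30 log2, SE, adjusted p = 2.51e-05) and ITGA3, and 4 lower (6.1%), led by TSPAN13 and CD9. Namalwa had 4 higher (4.13%), led by CD9 and ITGB2, and 7 lower (7.91%), led by TSPAN13 and TSPAN5. SU-DHL-4 had 7 higher (4.91%), led by TSPAN13, ITGAL and ITGB7, and 8 lower (7.23%), led by TSPAN7 and ITGAV. Reh had 7 higher (5.53%), led by TSPAN13, CD9 and ITGA4, and 4 lower (4.97%), led by ITGAV (-4.52 ± 0.30 log2, SE, adjusted p = 4.06e-06). Without Reh replicate 1 the lower members of Reh numbered 7, with ITGB2, ITGB7 and TSPAN33 added. In all, 25 of 52 members were called in at least 1 line, against 35.4% of all genes, and 27 in none.

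Between the subline L540Cy and L540 no member passed by limma after adjustment (0 of 52 called, against 1.49% of all genes, 0.642% higher and 0.824% lower by at least 1 log2), and 5 members had an unadjusted p under 0.05, against 11.2% of all genes. The largest differences were 1.16 ± 0.41 log2 for CD82 (SE, adjusted p = 0.276), -1.11 ± 0.88 for ITGB7 (SE, adjusted p = 0.854) and 1.09 ± 0.83 for TSPAN7 (SE, adjusted p = 0.825). With the most variable probe set of each gene 1 member was called, ITGA9, at 6.69 in L540Cy and 3.68 in L540. That probe set read 3.51 to 4.06 in all arrays but L540Cy. Its choice by variance thus came from the array compared, so the call is no independent test. With 1 array each, the comparison had no spread of its own.

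Other genes of these systems were read from lists of the pathway, and their counts stand beside the 0.759% of all genes called higher and 0.612% called lower. Of 23 integrin ligands 2 rose in the Hodgkin lines and 0 fell: ICAM1, the ligand of LFA-1 (3.02 log2, adjusted p = 0.0136), and JAM2 (3.49 log2, adjusted p = 0.00264). Of 36 genes of integrin activation and cytoplasmic linkage 0 rose and 2 fell: APBB1IP, the Rap1 effector that recruits talin (-5.96 log2, adjusted p = 0.0264), and RASGRP2, an activator of Rap1 (-2.49 log2, adjusted p = 0.0234). Of 23 tetraspanin partners and relatives 1 rose, IFITM1 (4.54 log2, adjusted p = 0.0486), and 0 fell. The F test called 17, 29 and 16 genes of these lists, and 51.9% of all genes. Their median class differences were 0.02, 0.07 and 0.18 log2. FERMT3, the kindlin of blood cells, and TLN1, talin, stood between 9.43 and 10.83 and between 7.48 and 9.14 in all lines. They did not pass between classes (adjusted p = 0.906 and 0.327) but did in the F test (adjusted p = 0.00416 and 0.00209).

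The promoter table held 61 starts of 36 members. Their median CG count was 12, against 11 over all starts, and 45.9% held at least 15 CG, against 42.9% of all. The TATA motif TATAAA, on either strand, stood in 3.28% of the member windows and 10.7% of all. The GC box GGGCGG stood in 57.4% and 42.6%, and the ETS-type core AGGAAG in 37.7% and 28.7%. These shares count starts, not genes: CD63 has 8 of the 61 and TSPAN4 5, and windows of a gene can overlap. Matches of different motifs can share end bases, and a match is a description of letters only. Members that ranged by over 4 log2 included genes with few CG (TSPAN8, CD53 and ITGAE) and genes with many (TSPAN5 with 43, ITGB1 with 32 at 1 of its 2 starts, ITGA4 with 25 and TSPAN13 with 22).

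**Figure D5:**
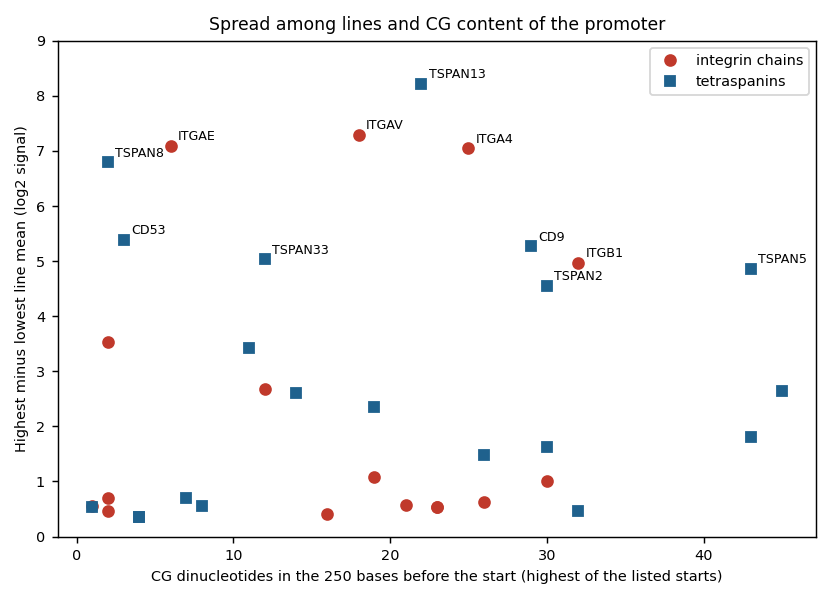
Range of the line means (log2 signal) against the number of CG dinucleotides in the 250 bases before the start, for the 36 members with a listed promoter (circles integrins, squares tetraspanins). Members with a range of at least 4 log2 are named and lie across the whole span of CG counts.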

How the data were processed

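The authors deposited log2 signals per probe set made with RMA (background correction, normalization between arrays and summary of probes), per the submitters' processing notes. Which program ran RMA is not stated here. RMA compresses differences near background, so folds of dim genes are understated. For arrays, the number of arrays limits the precision. Of 54675 probe sets 62 were controls, 41091 had 1 symbol in the platform annotation, 1801 several and 11721 none there. Probe sets with 1 symbol were kept, and their symbols compared by Entrez identifier against RefSeq (GRCh38.p14): 41037 matched and 0 were renamed.

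All tests were two-sided moderated linear models (limma 3.58.1, R 4.3.3) over all 19775 genes with Benjamini-Hochberg adjustment and a threshold of 0.05. Classes were compared over means of 8 lines of origin, and single lines in a fit of 15 arrays with 1 mean per line. The fits were tested on simulated data. Per the series design text duplicates were biological.

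The members and lists were chosen with earlier results of these data known. Named in full were members called in a line by at least 1 log2 (up to 5 each way) and a set of well-known chains and tetraspanins, whatever their values. Alternatives changed the lines, arrays, probe sets, filters, normalization and variance model. Promoter sequences are from RefSeq.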

Additional observations from a re-analysis of the deposited data

Results flagged for a closer look

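In 4 of 52 members a single Hodgkin line lay so far from the other 4 lines of origin that the gap exceeded Dixon's critical value for 5 values (0.71 of the range). The same held for 10.4% of all genes, so the count is not above the background, and chance flags about 1 in 20 groups. TSPAN8 stood at 11.06 in L428, with the next line at 4.51. ITGB2 stood at 10.02 in KM-H2, with the next at 4.92, and ITGA5 at 9.20 in KM-H2, with the next at 6.86. ITGAE stood at 4.34 in HDLM2, with the next at 9.72. The duplicate arrays of these lines lay together in all 4 cases.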

How the results depend on the processing

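The count of members higher in the Hodgkin lines, 0, became 2 with L540 and L540Cy as 2 lines (CD63 and ITGAV; 2.14% of all genes called), 4 with arrays in place of line means and the line as a random block (5.43%), and 1 (ITGAV) with only genes over 6 (2.44%) or only genes at or above the median (3.5%), against 1.37% as reported. Leaving out a line or an array gave 0 to 1 higher and 0 to 1 lower, where 147 to 399 of the 19775 genes were called. The class difference of TSPAN8 ranged from -0.11 log2 (without L428) to 1.59. The F test called 27 to 34 members over its alternatives. Leave-one-out ranges were 3 to 7 for lower members in L428, 1 to 4 in KM-H2, 4 to 7 in Reh and 6 to 10 in Namalwa. For higher members they were 5 to 9 in KM-H2 and 8 to 11 in HDLM2. The shares of all genes in the alternatives of the F test and of single lines are not given here. With the mean of all probe sets the higher members of L540 fell from 7 to 3, and the cause was not tested. With the most variable probe set L540Cy against L540 had 1 call, ITGA9, whose probe set was picked through the L540Cy array. The replicate numbers 1 and 2 were not used to pair arrays, since the labels name nothing they share and not every pair of lines moved together: deviations of same-numbered arrays had r from -0.07 to 0.36 (median 0.20), above 0.1 in 10 of 15. A shared component by number was not tested further. On the 12 numbered arrays the class comparison called 3 members with the replicate block (2.89% of all genes) and 3 without it (3.49%; CD63, ITGAV and TSPAN2 in both), a setting without the block that was chosen after seeing the data, and the F test 30 and 29. Dim genes limit the rest: a probe set near background on most arrays gives only compressed differences.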

Other observations

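For 5 members the probe set with the highest mean ranged by 1.33 log2 or less while a dimmer probe set of the same gene ranged by over 2 log2 between lines, a set named after its values were seen. ITGAM ranged by 0.46 log2, but a second probe set ranged by 3.33, highest in HDLM2 (7.60) and KM-H2 (7.52) and lowest in SU-DHL-4 (4.27). TSPAN12 ranged by 0.55 log2, but its dimmest probe set by 3.62, highest in L428. ITGA9 ranged by 1.33 log2, but another of its 4 probe sets by 3.05, highest in L540Cy. ITGA6 and TSPAN18 ranged by 1.01 and 0.80 log2, but their second probe sets by 2.39 and 2.58. Their r with the brighter probe set over 15 arrays was -0.12, 0.31, 0.65, 0.87 and 0.86. Which probe set follows the main transcript was not tested.

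Some ligands, linkers and partners, also named after their values were seen, were extreme in lines where an integrin chain was lowest or highest. Every gene is highest in some line and lowest in another. How many listed genes were extreme in these lines is not given here, and a link to the integrin chains was not tested. In HDLM2, lowest in ITGA4 and ITGAE, VCAM1 stood at 10.25 (3.94 to 9.40 in the other lines) and CDH1, which encodes E-cadherin, at 10.14 (3.77 to 7.08), while the focal adhesion kinase gene PTK2 stood at 4.10 (6.69 to 10.55). In L1236, lowest in ITGB1, the membrane-cytoskeleton linker MSN stood at 7.07 (11.10 to 12.37) and CD59 at 4.62 (8.08 to 12.36). KM-H2, highest in ITGB2, had CR2, which encodes the complement receptor CD21, at 12.18 (3.88 to 4.55).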
